A study of Mus musculus with 2 samples.

Results

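The PDGF system was examined as 6 genes, the receptors Pdgfra and Pdgfrb and the ligands Pdgfa, Pdgfb, Pdgfc, and Pdgfd, in mouse periosteum, the fibrous sheath of bone that holds periosteal skeletal stem cells (P-SSCs). The members were found by symbol, 6 of 32288 features, and all 6 had counts in both libraries. The data were 2 libraries made with the 10x Chromium 3′ kit, replicates 1 and 2 of a single condition. They came from the femurs and tibias of mice labelled as wild-type C57BL6, 4 weeks of age. Periosteum was peeled off, digested with collagenase, and sorted for cells without CD45, CD31, and Ter119, a gate meant to remove blood, endothelial, and erythroid cells. The labels name no treatment or second genotype, although reporter transcripts described below are at odds with the wild-type label. How many mice were pooled for a library is not given in the sources used here. On GRCm38 (GENCODE M21), Pdgfra lies on chr5:75152292-75198215 (+), Pdgfa on chr5:138976014-138997370 (-), Pdgfb on chr15:79995874-80014977 (-), Pdgfc on chr3:81036416-81214040 (+), Pdgfd on chr9:6168584-6378850 (+), and Pdgfrb on chromosome 18. Each is a protein-coding gene, and all but Pdgfrb overlap another annotated gene in the span, such as Ddi1 inside Pdgfd.

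Pdgfra and Pdgfrb are receptor tyrosine kinases of the class III family that dimerize when a PDGF dimer binds. PDGF-A and PDGF-C chains act mainly through Pdgfra, PDGF-B binds both receptors, and PDGF-D acts mainly through Pdgfrb; PDGF-C and PDGF-D are secreted as latent forms that proteases must cut. Pdgfra is widely used as a mark of mesenchymal progenitors, including P-SSCs, and Pdgfrb as a mark of pericytes and vascular smooth muscle, which PDGF-B from endothelium recruits to vessels.

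Library 1 held 9932 barcodes and 100808649 unique molecular identifiers (UMIs, each standing for 1 captured transcript), and library 2 held 3659 barcodes and 33306452 UMIs. Barcodes were kept as cells at 500 genes, 500 UMIs, and at most 10% mitochondrial UMIs, which left 6276 and 2893, and 7 barcode sequences occurred in both libraries. Despite the gate, clusters of blood cells made up 7527 of the 9169 kept cells, and 434 cells of library 1 and 1102 of library 2 were stromal. The libraries also differed in a reporter transcript that wild-type mice do not carry. EGFP had 0 UMIs in library 1 and 6837 UMIs in 170 cells of library 2, against the genotype in the labels, and tdTomato had 1482 UMIs in library 1 and 4627 in library 2. Levels and shares below are therefore given for each library on its own, apart from some means near the end. The fits and the correlations join both libraries.

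Stromal classes were rebuilt by clustering without the 6 members and named from marker lists, so each name means only that a cluster resembled that type. P-SSC-like cells numbered 36 in library 1 and 314 in library 2, osteoblast-like cells 94 and 195, chondrocyte-like cells 27 and 120, skeletal muscle-like cells 72 and 64, Lepr+ stromal-like cells 60 and 6, tenocyte-like cells 2 and 94, and smooth muscle-like cells 4 and 21. Clusters that no list named are called by their leading genes, such as the cluster led by Mmp9, Tnc, and Fabp5 with 24 and 38 cells. The cluster led by Col10a1, Mgp, and Aldh1a3 (67 and 74 cells) met 5 of 11 chondrocyte markers. It stayed unnamed and is not part of the chondrocyte-like class. No cluster was named osteogenic progenitor-like or endothelial-like, but the unnamed cluster led by S100a5, Stoml3, and Gng13 (30 and 49 cells) held all 9 endothelial markers, at 838 and 890 CPM in sum, in few of its cells. Neutrophil transcripts moved with library 1. Among P-SSC-like cells of library 1, 1 of 36 drew 25.9% of its UMIs from the neutrophil marker list, and among Lepr+ stromal-like cells 6 of 60 were over 0.5%, the highest at 22.0%, whereas no cell of either class in library 2 was above 0.232%.

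Pdgfra was high in P-SSC-like cells of both libraries, and in library 1 in Lepr+ stromal-like cells as well. The unit of level is CPM, that is, a gene's UMIs for every 1000000 UMIs summed over the class, with exact Poisson intervals that cover counting error only. Pdgfra was at 309 CPM in library 1 (95% interval 252 to 373, from 105 UMIs) and 298 in library 2 (278 to 319, from 842 UMIs). Lepr+ stromal-like cells came next in library 1 with 254 CPM (213 to 302), an interval that overlaps that of P-SSC-like cells, but in library 2 their 66.1 rested on 2 UMIs in 6 cells (8.01 to 239). Without the 6 cells rich in neutrophil transcripts, Lepr+ stromal-like cells of library 1 had 288 CPM of Pdgfra and 751 of Pdgfrb. Without cells of any class that held 2 or more UMIs of hematopoietic genes, their Pdgfra level of 315 CPM in library 1 was above the 311 of P-SSC-like cells, so the order of these classes in library 1 turned with that choice.

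Osteoblast-like cells, the bone-forming class, also carried Pdgfra, at 105 CPM in library 1 and 65.3 in library 2. All 3 of their clusters did, with levels from 93.0 to 154 in library 1 and from 49.9 to 125 in library 2. The highest of the 3 in either library was the cluster led by Bglap3, Bglap, and Bglap2, osteocalcin genes of mature osteoblasts. In tenocyte-like cells of library 2 the level was 84.0, and in the cluster led by Msmp, Cytl1, and Prg4, which had cells in library 2 only, it was 89.9. The intervals of these last levels overlapped that of osteoblast-like cells in library 2 (56.7 to 74.7).

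The cluster led by Mmp9, Tnc, and Fabp5 also held Pdgfra, with 24 UMIs in its 24 cells of library 1 and 13 in its 38 cells of library 2. In CPM this was about the level of osteoblast-like cells in library 1 (105) and below it in library 2 (65.3). Chondrocyte-like, smooth muscle-like, and skeletal muscle-like cells had little or no Pdgfra. Chondrocyte-like cells had 0 UMIs in library 1, which allows up to 3.30 CPM at 3 counts, and 4 UMIs in library 2 (1.09 CPM). Smooth muscle-like and skeletal muscle-like cells had 0 UMIs in both libraries, although with few cells the limit for smooth muscle-like cells was 126 CPM in library 1 and 23.1 in library 2. B cell-like cells, which should lack the gene and so show the free RNA in the droplets, were at 0.117 and 0.686 CPM, and chondrocyte-like cells of library 2 were close to that background.

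Pdgfrb had another order. Smooth muscle-like cells, the class that holds Rgs5 and Acta2, were highest, at 1853 CPM in library 1 (44 UMIs in 4 cells) and 694 in library 2 (90 UMIs in 21 cells). Lepr+ stromal-like cells, marrow-type stroma with Cxcl12 and Adipoq, had 658 in library 1 (590 to 732) and 397 in library 2 (205 to 693). The cluster led by Mmp9, Tnc, and Fabp5 had 732 (621 to 856) and 326 (265 to 396). In each library the intervals of Lepr+ stromal-like cells and this cluster overlapped, and in library 2 the interval of Lepr+ stromal-like cells also reached that of smooth muscle-like cells (558 to 854).

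P-SSC-like cells followed with 70.5 CPM of Pdgfrb in library 1 (45.2 to 105) and 95.6 in library 2 (84.5 to 108). Tenocyte-like cells of library 2 were at 78.0 (60.2 to 99.5), which overlaps the P-SSC-like interval. Few smooth muscle transcripts were in the P-SSC-like sums, where the marker list of that type summed 264 and 310 CPM against 23916 and 22084 in smooth muscle-like cells, with 7 and 10 of its 11 genes seen. Rgs5 had 9 and 224 UMIs there, in 5.56% and 4.46% of the cells, and its part in the Pdgfrb level was not tested. Osteoblast-like cells stood far lower, at 1.58 and 2.49 CPM, from 4 and 8 UMIs. Chondrocyte-like cells were at 2.20 and 1.09, and B cell-like cells at 0.117 and 0.137. The classes with the most Pdgfra and those with the most Pdgfrb were therefore not the same, with Lepr+ stromal-like cells of library 1 high in both.

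**Figure D1:**
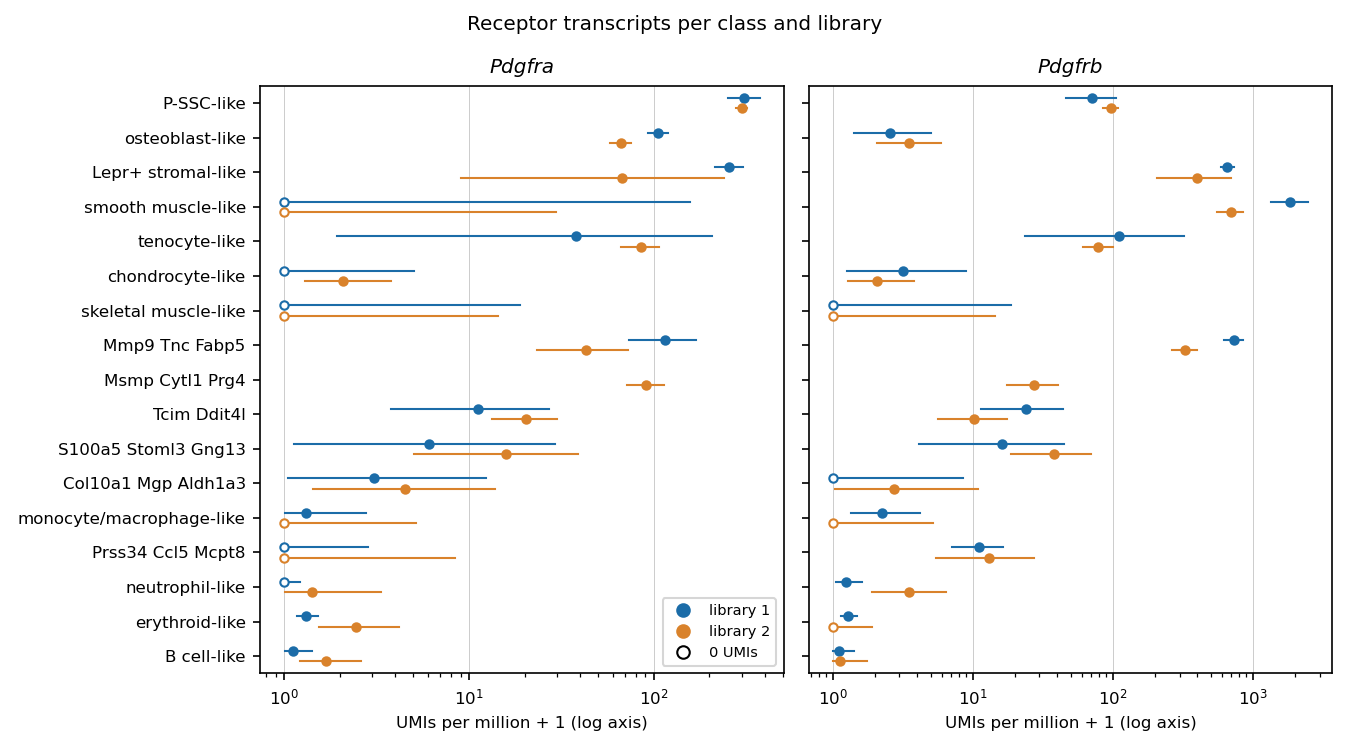
Levels of Pdgfra (left) and Pdgfrb (right) as CPM plus 1 on a log axis, for stromal classes and, at the bottom, blood classes. Points are the 2 libraries, bars are exact 95% Poisson intervals, and open points mark 0 UMIs. Pdgfra is high in P-SSC-like cells of both libraries and in Lepr+ stromal-like cells of library 1, and smooth muscle-like, Lepr+ stromal-like, and Mmp9 Tnc Fabp5 cells are highest for Pdgfrb.

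The balance of the receptors within a class needs no scaling, since both are counted in the same cells. Transcripts of different genes can be captured with different efficiency, so the share is compared between classes and is no ratio of proteins. In P-SSC-like cells Pdgfra made up 81.4% of the UMIs of both receptors in library 1 (105 of 129, exact binomial 95% interval 73.6 to 87.7) and 75.7% in library 2 (842 of 1112, 73.1 to 78.2). In osteoblast-like cells the share was 98.5% (265 of 269) and 96.3% (210 of 218). Here nearly all receptor transcripts were Pdgfra, and the odds of a Pdgfra UMI against a Pdgfrb UMI were lower in P-SSC-like than in osteoblast-like cells, with an odds ratio of 0.0665 in library 1 (0.0164 to 0.200) and 0.119 in library 2 (0.050 to 0.243).

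Lepr+ stromal-like cells had the reverse balance. Their Pdgfra share was 27.9% in library 1 (131 of 470, 23.9 to 32.2) and 14.3% in library 2 (2 of 14, 1.78 to 42.8). The odds of Pdgfra were 11.3-fold higher in P-SSC-like cells in library 1 (6.83 to 19.2) and 18.7-fold higher in library 2 (4.11 to 173). Both intervals lay above 1. Like the intervals of the shares and of the ratios between classes below, they cover counting error only and treat the UMIs of a cell as independent. The value of library 2 rests on 14 receptor UMIs in 6 Lepr+ stromal-like cells.

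The cluster led by Mmp9, Tnc, and Fabp5 was balanced towards Pdgfrb as well, with a Pdgfra share of 13.4% (24 of 179) and 11.4% (13 of 114). Its best list was the Lepr+ stromal one with 5 of 11 markers, and it was left unnamed because another list had more of its leading genes. Smooth muscle-like cells had no Pdgfra UMI among 44 and 90 receptor UMIs, which allows a share of up to 8.04% and 4.02% by the exact interval. Tenocyte-like cells of library 2 were at 51.9% (70 of 135, 43.1 to 60.5) and the cluster led by Msmp, Cytl1, and Prg4 at 77.3% (75 of 97, 67.7 to 85.2). The latter interval holds the value of P-SSC-like cells of the same library.

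**Figure D2:**
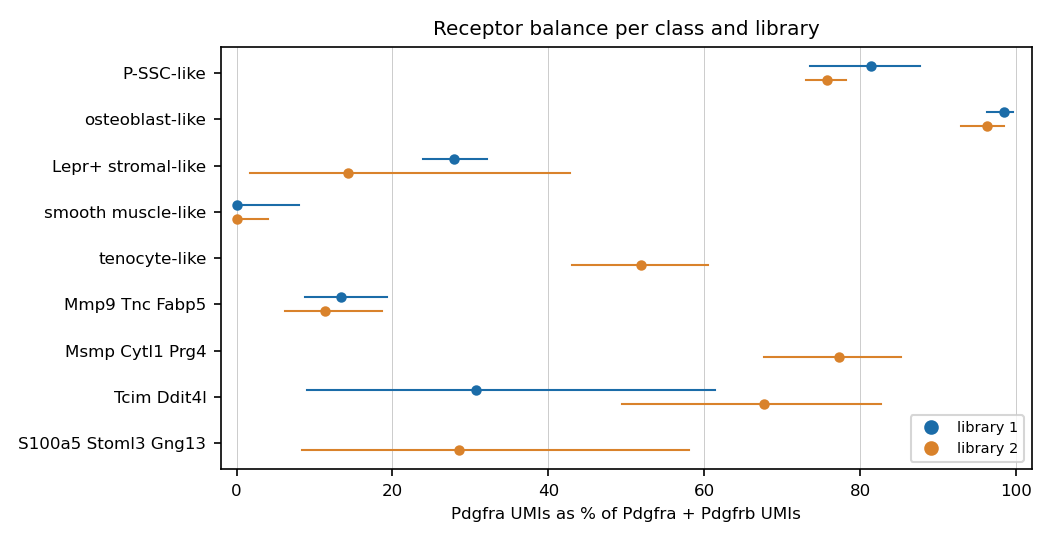
Pdgfra UMIs as a percentage of Pdgfra plus Pdgfrb UMIs, for each stromal class and library with at least 10 receptor UMIs. Points are libraries and bars exact 95% binomial intervals. Osteoblast-like cells sit above 96%, P-SSC-like cells between 75% and 82%, and Lepr+ stromal-like cells below 28%.

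The P-SSC-like class was made of a cluster led by Pi16, Mfap5, and Ccl2 (20 and 192 cells) and a cluster led by Mfap4, Eln, and Apod (16 and 122 cells). The first had Pdgfra at 359 and 300 CPM and Pdgfrb at 41.3 and 83.0. In the second, Pdgfra was at 184 and 295 and Pdgfrb at 143 and 120. The Pdgfra share was lower in the second cluster in both libraries, 56.2% against 89.7% in library 1 and 71.1% against 78.3% in library 2. The intervals of library 2 overlapped, 66.4 to 75.5 against 75.1 to 81.3. In library 1 the Mfap4 cluster counted only 32 receptor UMIs (interval 37.7 to 73.6), and P-SSC-like cells of library 1 summed 4819 CPM of the Lepr+ stromal marker list against 1136 in library 2; the part of this in the share was not tested.

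Within single cells, most P-SSC-like cells had a Pdgfra UMI and about as many had both receptors as Pdgfra alone. In library 1, of 36 cells 11 had Pdgfra only, 13 both, 5 Pdgfrb only, and 7 neither. In library 2, of 314 cells 124 had Pdgfra only, 129 both, 23 Pdgfrb only, and 38 neither. If every cell of the class drew the receptors at 1 common rate per UMI, 14.6 and 155 cells with both would be found at these depths. The observed 13 and 129 were below these numbers. At that rate 80.4% and 85.3% of cells would have Pdgfra, and 43.9% and 53.8% would have Pdgfrb. Pdgfra was seen in fewer cells than that in both libraries, and Pdgfrb in library 2. The shortfall of cells with both therefore does not show whether the receptors fall in the same cells. No test was made over cells, which share a library.

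Osteoblast-like cells had Pdgfra only in 73 of 94 and 103 of 195 cells, and both receptors in 3 and 4. Among Lepr+ stromal-like cells of library 1, 48 of 60 had both, 8 had Pdgfrb only, and none had Pdgfra only; in library 2, 1 of 6 had both and 3 had Pdgfrb only. All 4 and all 21 smooth muscle-like cells had Pdgfrb and none had Pdgfra. The share of B cell-like cells with a UMI was 0.0838% and 0.422% for Pdgfra and 0.0838% and 0.0843% for Pdgfrb, at median depths of 3661 and 3861 UMIs, against 11040 and 8843 in P-SSC-like cells.

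Depth sets such shares, so each cell was also thinned to 1000 UMIs. The expected share of P-SSC-like cells with Pdgfra was then 20.04% in library 1 and 26.2% in library 2, and with Pdgfrb 10.2% and 9.80%. For osteoblast-like cells the thinned shares were 9.83% and 8.64% for Pdgfra and 0.128% and 0.231% for Pdgfrb. In Lepr+ stromal-like cells they were 23.3% and 9.11% for Pdgfra and 48.9% and 30.4% for Pdgfrb. In library 1 the thinned Pdgfra share of Lepr+ stromal-like cells was thus above that of P-SSC-like cells, the reverse of the levels, while for Pdgfrb the order of the classes was that of the levels. In library 2, 8 P-SSC-like cells were too shallow to enter.

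**Figure D3:**
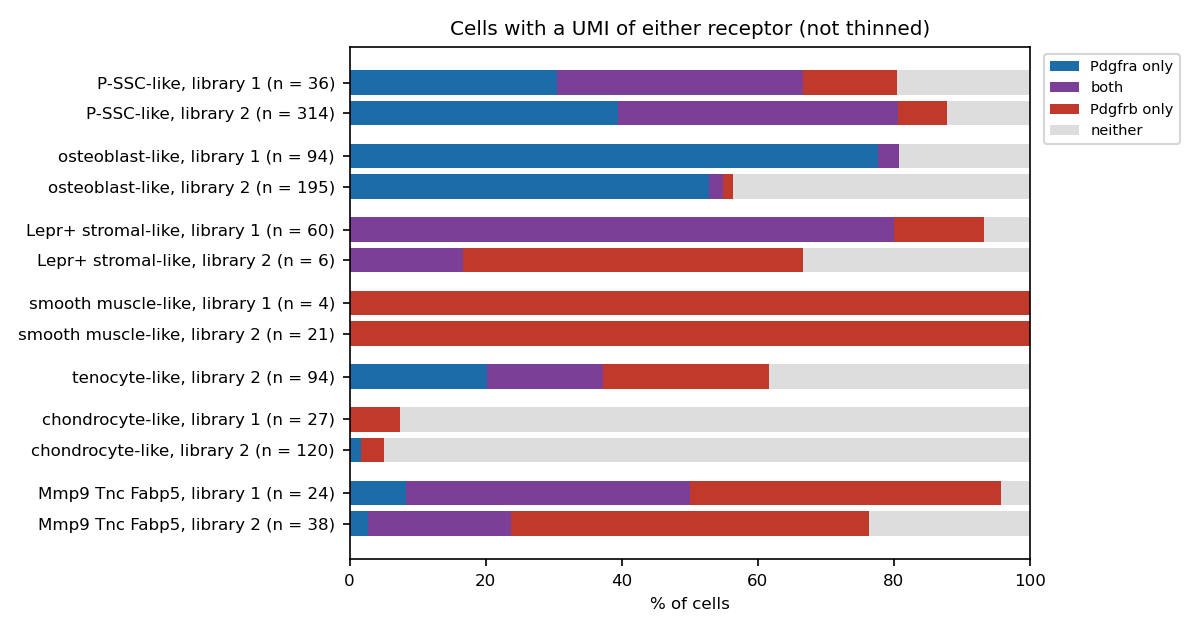
Percentage of cells with at least 1 UMI of Pdgfra only, both receptors, Pdgfrb only, or neither, per class and library with at least 4 cells, with the number of cells beside each bar. Cells are not thinned to a common depth. Bars of P-SSC-like cells hold a large part with both receptors, those of osteoblast-like cells 2.05% to 3.19%, and those of smooth muscle-like cells Pdgfrb only.

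P-SSC-like cells were next compared with the other classes across the 2 libraries, on UMIs summed per library and class and tested with the quasi-likelihood test of edgeR over 10816 genes. Against osteoblast-like cells, 2069 genes passed an adjusted p of 0.05 (19.1%), 1285 of them higher in P-SSC-like cells (11.9%) and 784 lower (7.25%). Of the members, 5 were tested and 4 passed, 1 higher and 3 lower, while Pdgfb was left out by the filter on low counts. Normalization by trimmed mean of M-values (TMM) shifted log2 fold changes below the log2 ratios of CPM, by 0.71 in library 1 and 0.40 in library 2. The shift makes differences smaller for genes higher in P-SSC-like cells and larger in size for genes lower there. For Pdgfa, for example, the log2 ratios of CPM were -1.75 and -2.05 and the fitted change was -2.41. The members were left out of clustering, but genes that vary with them were not.

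Pdgfrb was the member that separated these classes most. In CPM, P-SSC-like cells exceeded osteoblast-like cells 44.6-fold in library 1 (15.3 to 177) and 38.4-fold in library 2 (19.2 to 90.0). The fitted log2 fold change was 4.81 (SE 0.52, adjusted p = 0.000208, edgeR). Pdgfra was higher by 2.95-fold in library 1 (2.33 to 3.71) and 4.57-fold in library 2 (3.92 to 5.34), with a fitted log2 fold change of 1.31 (SE 0.46) that did not pass (adjusted p = 0.0751, edgeR). When library was added as a replicate block, the difference passed (log2 fold change 1.32, adjusted p = 0.0421, edgeR). Over 13 alternatives the adjusted p of Pdgfra ranged from 0.0217 to 0.217 and passed in 5; without the P-SSC-like cell rich in neutrophil transcripts it was 0.0597 (log2 fold change 1.31, edgeR).

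The ligands tested went the other way against osteoblast-like cells. Pdgfa had 41.1 and 46.0 CPM in P-SSC-like cells where osteoblast-like cells had 138 and 191 (log2 fold change -2.41, SE 0.72, adjusted p = 0.0435, edgeR). Pdgfc was at 20.6 and 17.4 against 58.5 and 35.4 (-1.83, SE 0.57, adjusted p = 0.0489, edgeR). Pdgfd was at 14.7 and 12.7 against 36.3 and 27.7 (-1.74, SE 0.44, adjusted p = 0.0257, edgeR). In each case the osteoblast-like value was the higher in both libraries, but Pdgfa lost the call in 4 of 13 alternatives, Pdgfc in 7, and Pdgfd in 2.

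Against chondrocyte-like cells, 2526 genes passed (23.4%), 1507 higher in P-SSC-like cells (13.9%) and 1019 lower (9.42%); this comparison uses the same P-SSC-like sums as the one before. Of the 5 members tested, 4 passed and all 4 were higher. For Pdgfra in library 1, chondrocyte-like cells had 0 UMIs. Set at 3, they gave a ratio of 93.5, and the exact interval had a lower bound of 74.7. In library 2 Pdgfra was 273-fold higher on 4 UMIs (106 to 1006). The fitted log2 fold change of Pdgfra was 7.97 (SE 0.70, adjusted p = 4.80e-05, edgeR). Pdgfrb was 32.1-fold higher in library 1 (7.96 to 280) and 87.6-fold in library 2 (33.8 to 324), fitted at 5.45 (SE 0.58, adjusted p = 0.000161, edgeR). Chondrocyte-like cells had at most 4 UMIs of either receptor in a library.

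Pdgfc and Pdgfd were higher in P-SSC-like than in chondrocyte-like cells. For Pdgfc the fitted difference was 2.94 (SE 0.70, adjusted p = 0.0134, edgeR), and chondrocyte-like cells had 0 and 9 UMIs. For Pdgfd they had 0 UMIs in both libraries, and P-SSC-like cells were at least 4.45-fold and 15.6-fold higher on 5 and 36 UMIs (adjusted p = 0.000804, edgeR). Pdgfa did not pass (log2 fold change -1.54, SE 0.71, adjusted p = 0.153, edgeR), and the libraries went different ways. Its ratio was 1.39 in library 1 (0.671 to 2.74), where chondrocyte-like cells had 27 UMIs, and 0.290 in library 2 (0.238 to 0.351), where they had 582.

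**Figure D4:**
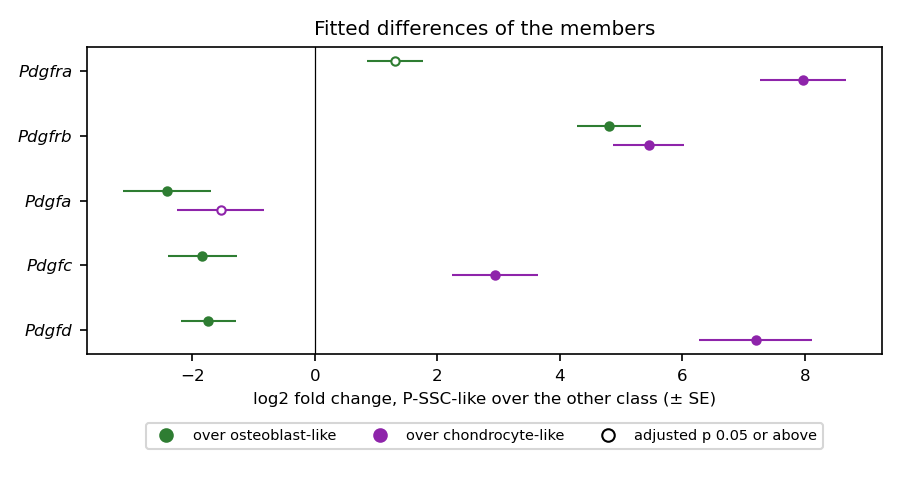
Fitted log2 fold changes of 5 members in P-SSC-like over osteoblast-like (green) and over chondrocyte-like cells (purple), with standard errors. Filled points passed an adjusted p of 0.05 in edgeR and open points did not. Pdgfrb lies at 4.81 and 5.45; Pdgfd over chondrocyte-like cells was fitted against 0 UMIs, and its size depends on the fit.

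A test against Lepr+ stromal-like cells was not possible in the same model, since library 2 held 6 of them. In CPM, Pdgfrb in P-SSC-like cells was 0.107 times the Lepr+ level in library 1 (0.0677 to 0.162) and 0.241 times in library 2 (0.136 to 0.472). For Pdgfra the ratio was 1.21 in library 1 (0.930 to 1.58), an interval that holds 1, and 4.51 in library 2 (1.24 to 37.3). At the coarser resolution of 0.4 the class took in further cells, 91 and 44, among them cells led by Mmp9, and a test could be made in which 5.95% of 9621 genes passed. Pdgfrb was then lower in P-SSC-like cells (log2 fold change -2.53, SE 0.47, adjusted p = 0.0139, edgeR) and Pdgfra did not pass (1.42, SE 0.67, adjusted p = 0.328, edgeR). With 5 cells allowed as the smallest class, a choice made after the data were seen, 4.17% of 9279 genes passed, among them Pdgfrb (-2.32, SE 0.50, adjusted p = 0.0279, edgeR) and again not Pdgfra (1.00, SE 0.63, adjusted p = 0.473, edgeR).

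Among the ligands, Pdgfa had the most UMIs, 821 in library 1 and 2533 in library 2, of which stromal cells gave 84.5% and 94.4%. Its highest level was in the cluster led by Tcim and Ddit4l, an unnamed cluster with 18 and 49 cells whose best list was hypertrophic chondrocyte-like with 2 of 8 markers. It summed 49394 and 48245 CPM of osteoblast markers, 27874 and 19995 of hypertrophic chondrocyte markers, and 15440 and 10564 of chondrocyte markers. Pdgfa was at 376 CPM there in library 1 (318 to 441) and 518 in library 2 (477 to 560). Smooth muscle-like cells had 337 (8 UMIs in 4 cells) and 363 (47 UMIs in 21 cells). On so few counts, their rank against the cluster led by Tcim and Ddit4l is not settled in library 1. The cluster led by Mmp9, Tnc, and Fabp5 had 156 and 329. As a source, osteoblast-like cells gave 42.5% of all Pdgfa UMIs of library 1 from 1.498% of the cells and 24.2% in library 2 from 6.74%.

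In chondrocyte-like cells the Pdgfa level differed between the libraries, 29.7 CPM (19.6 to 43.2) against 159 (146 to 172). The share of their cells with a Pdgfa UMI was 59.3% (16 of 27) and 61.7% (74 of 120) at full depth, and 3.71% and 13.1% when cells were thinned to 1000 UMIs. Monocyte/macrophage-like cells showed a gap in the same direction, 9.48 (6.40 to 13.5) against 51.1 (37.2 to 68.3). Osteoblast-like cells (138 against 191) and the clusters led by Tcim and by Mmp9, at the levels above, were also higher in library 2. In CPM so were, on few counts, skeletal muscle-like cells (3 and 14 UMIs) and the cluster led by Col10a1 (15 and 37 UMIs). Lepr+ stromal-like cells (97.0 against 33.1, the latter on 1 UMI) went the other way. So did tenocyte-like cells (6 UMIs in 2 cells of library 1) and, by little, the cluster led by S100a5 (41 and 51 UMIs). The intervals of P-SSC-like cells, 22.5 to 69.0 and 38.5 to 54.7, overlapped. B cell-like cells were at 2.05 and 1.92.

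Pdgfb, the ligand of both receptors, was the rarest member, with 81 UMIs in library 1 and 48 in library 2. Monocyte/macrophage-like cells gave 41 (50.6%) and 25 (52.1%) of them, at 12.95 and 28.4 CPM, in 19 of 242 and 8 of 73 cells. These shares describe the sorted cells, from which the gate was meant to remove endothelium. The blood cluster led by Prss34, Ccl5, and Mcpt8 gave 18 and 5, neutrophil-like cells 11 and 0, the cluster led by S100a5, Stoml3, and Gng13 0 and 8, and skeletal muscle-like cells 4 and 5. All 8 UMIs of the S100a5 cluster were in 2 of its 4 cells of library 2 with at least 3 UMIs of endothelial markers, a split made after the values were seen, and the 4 such cells of library 1 had 0. Those 4 cells of library 2, at 291 CPM, were above the monocyte/macrophage-like level. Skeletal muscle-like cells of library 1, with 4 of 205862 UMIs, were also above it, on few counts. P-SSC-like cells had 0 UMIs in both libraries, which allows up to 8.82 CPM in library 1 and 1.06 in library 2. At this depth Pdgfb was not detectable in P-SSC-like cells, and osteoblast-like cells had 2 and 0 UMIs.

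Pdgfc came mainly from osteoblast-like cells, which gave 148 of 193 UMIs in library 1 (76.7%) and 114 of 252 in library 2 (45.2%). P-SSC-like cells gave 3.63% and 19.4%, with 0.574% and 10.9% of the cells. The cluster led by Mmp9, Tnc, and Fabp5, at 33.0 and 32.2 CPM, had intervals that overlap the osteoblast-like ones. Lepr+ stromal-like cells had 1 and 0 UMIs.

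Pdgfd, which needs proteolysis before it binds Pdgfrb, also had its largest source in osteoblast-like cells, 92 of 181 UMIs (50.8%) and 89 of 151 (58.9%). P-SSC-like cells gave 5 and 36 UMIs and Lepr+ stromal-like cells 13 and 0. In library 1 the level of Lepr+ stromal-like cells was 25.2 CPM, against 36.3 in osteoblast-like cells. Without cells that held 2 or more UMIs of hematopoietic genes, that order turned, with 39.0 against 35.9. Erythroid-like cells of library 1 gave 56 UMIs, 30.9% of the library's total, spread over 54 of 1676 cells at 1.27 CPM. That level lies above the 0.0586 of B cell-like cells and far under the 36.3 of osteoblast-like cells. In library 2 erythroid-like cells had 3 UMIs (0.729 CPM).

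**Figure D5:**
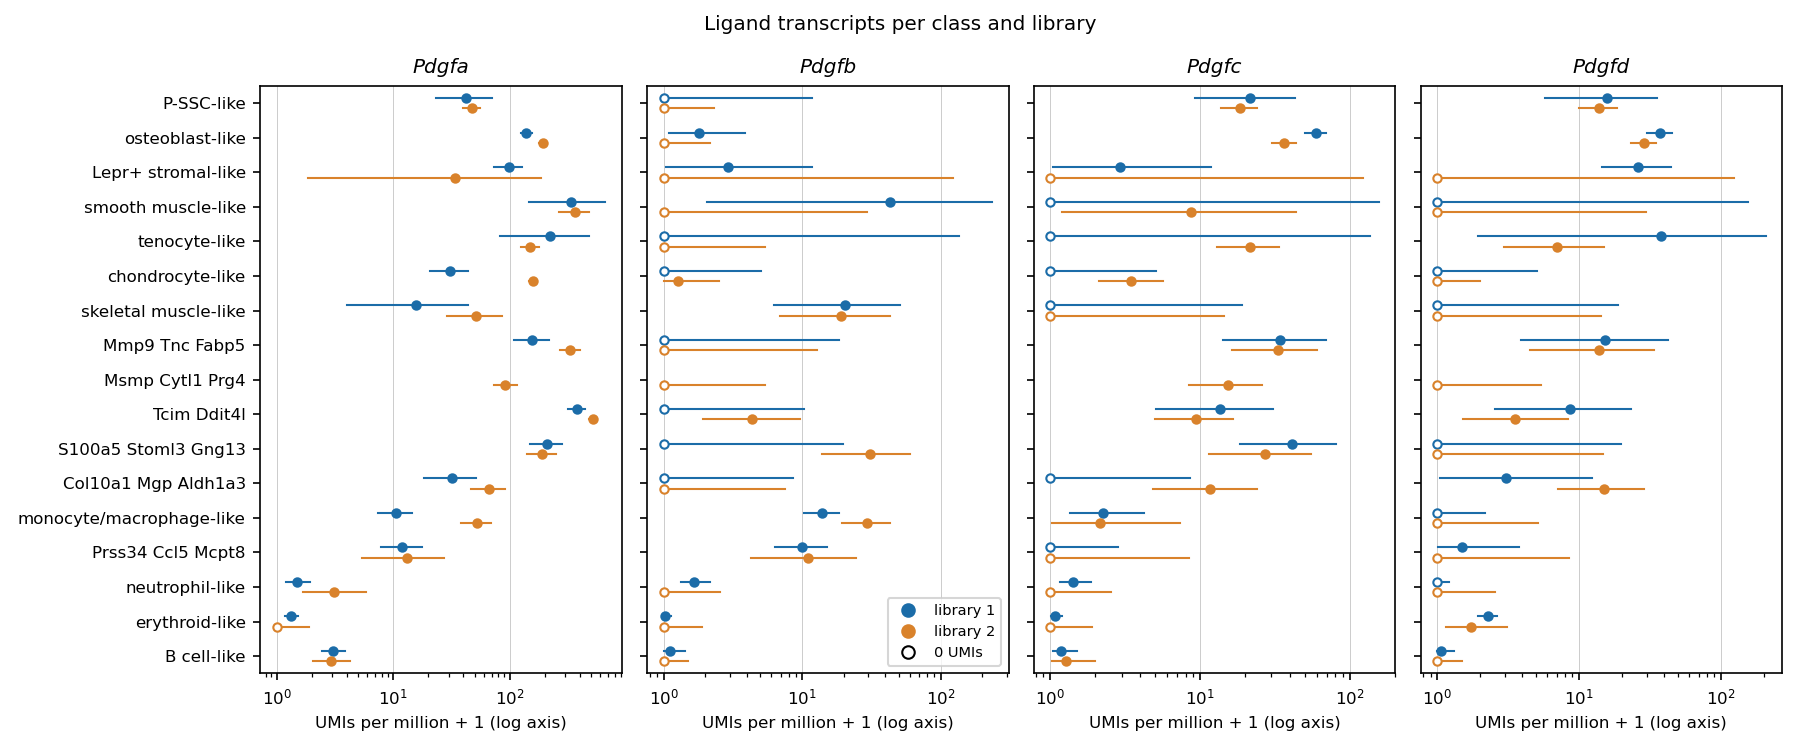
Levels of the 4 ligands as CPM plus 1 on a log axis, for stromal classes and, at the bottom, blood classes. Points are libraries, bars exact 95% Poisson intervals, and open points 0 UMIs. Pdgfa reaches 518 in the cluster led by Tcim and Ddit4l, and monocyte/macrophage-like cells hold the most Pdgfb UMIs. Osteoblast-like cells hold the most Pdgfc and Pdgfd UMIs.

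Genes around the receptors were read from lists of the pathway in the same fits; unlike the members they were not left out of clustering, so their differences describe the classes. Over all genes tested, the median log2 fold change was 0.04 against either class. The counts below stand beside the 19.1% of all genes that passed against osteoblast-like cells (11.9% higher, 7.25% lower). Against chondrocyte-like cells 23.4% of all genes passed (13.9% higher, 9.42% lower). The lists are short, and none was tested as a set. Of 6 tested genes for ligand processing, P-SSC-like cells had 2 higher and 1 lower than osteoblast-like cells, with a median of -0.43. Plau, the urokinase protease that can activate PDGF-D, had the largest change, with 11 and 92 UMIs (32.3 and 32.6 CPM) in the P-SSC-like sums and 0 and 1 in the osteoblast-like sums (adjusted p = 0.000680, edgeR). Against chondrocyte-like cells 4 were higher and 1 lower (median 2.62), led by Plat, the tissue plasminogen activator that cleaves PDGF-C, at 41.1 and 81.8 CPM against 0 and 0.545.

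Of 7 tested coreceptors and binding proteins, 2 were higher and 2 lower than in osteoblast-like cells (median -0.70). Nrp2, a neuropilin coreceptor, had 26.4 and 9.91 CPM in P-SSC-like cells against 792 and 379 in the osteoblast-like class (log2 fold change -5.77, adjusted p = 0.0164, edgeR). Nrp1 and Lrp1 were the higher ones, by 2.26 (SE 0.52) and 2.03 (SE 0.49). Against chondrocyte-like cells 3 were higher and 3 lower (median 0.16), with Dcn, the matrix proteoglycan decorin, first at 5674 and 9952 against 118 and 196 CPM.

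Of 17 tested proximal signalling genes, 2 passed against osteoblast-like cells, Nck2 and Stat5b, both higher (median 0.65), and 5 against chondrocyte-like cells, all higher (median 0.67), with Fyn, a Src-family kinase, changed most at 2.88 (SE 0.40, adjusted p = 0.000787, edgeR). Of 10 negative regulators, Spry1 was higher and Socs3 lower against osteoblast-like cells (median -0.20). Socs3, a suppressor of cytokine signalling, was at 85.2 and 112 CPM against 601 and 172. Against chondrocyte-like cells 3 were higher and 2 lower (median 0.92), and Spry1, a feedback inhibitor of receptor kinases, changed most at 6.32 (SE 0.75, adjusted p = 0.000152, edgeR).

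Of the genes for the other class III receptors and their ligands 4 were tested, and all 4, the ligands Csf1, Il34, Kitl, and Flt3l, were higher in P-SSC-like cells against osteoblast-like cells (median 3.88) and against chondrocyte-like cells (median 4.77); their receptors Kit, Csf1r, and Flt3 were not tested. Kitl stands in the Lepr+ stromal marker list as well. Csf1, the growth factor of macrophages, had 150 and 115 CPM in P-SSC-like cells, against 7.51 and 8.39 for osteoblast-like and 2.20 and 3.27 for chondrocyte-like cells. Il34, which binds the same receptor as Csf1, was at 14.7 and 18.8 against 0 and 0.311 in osteoblast-like cells.

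Of 5 tested VEGF family genes, 3 were higher and none lower against osteoblast-like cells (median 2.13) and the same numbers against chondrocyte-like cells (median 3.90), and both medians were the same with genes at 0 UMIs set at 3 counts. Vegfd, a lymphatic growth factor, had 9 and 64 UMIs in P-SSC-like cells (26.4 and 22.7 CPM) and 0 in both other classes and libraries. Vegfc, its close relative, had 19 and 26 UMIs against 0 and 0 in chondrocyte-like cells, with 55.8 CPM for P-SSC-like cells of library 1 and 9.21 for those of library 2.

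The genes whose levels ran most like the receptors were ranked over 8 sums, the P-SSC-like, osteoblast-like, chondrocyte-like, and skeletal muscle-like class in each library, by Pearson correlation among 9889 genes. For Pdgfra these were Dpysl3, Nnmt, Adgrd1, Ptprg, and Kcnt2, with r from 0.991 to 0.997. For Pdgfrb they were C1ra, Podn, Mrgprf, Pi16, and C1s1, with r from 0.997 to 0.999. Pi16 is itself in the P-SSC-like marker list. Among the classes summed, Pdgfrb was high in P-SSC-like cells only, so its ranking cannot be told apart from a ranking of genes that mark that class. The 8 sums share libraries and depth, and Lepr+ stromal-like and smooth muscle-like cells, where Pdgfrb was highest, are not among them.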

How the data were processed

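Per the labels and methods, the authors sorted periosteal cells, made 10x 3′ libraries, and counted reads with Cell Ranger 6.1.2 on mm10; the annotation is not given in the sources used here. The deposited values were raw UMI counts per gene and barcode, without normalization. Cells were filtered as in the methods and integrated with Seurat 5.3.0 (3000 variable genes without the 6 members, 30 anchor dimensions, 15 principal components, resolution 0.8). Blood clusters were removed and the rest clustered again, and 106 cells named erythroid- or B cell-like in that round joined no stromal class. A class needed at least 3 markers of its list, each at least 1 higher on the log2 scale and in 20% of cells, and no other list with more of the 10 leading genes. Doublets were not removed.

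UMIs were summed per library and class. The classes that reached 10 cells in both libraries (P-SSC-like, osteoblast-like, chondrocyte-like, and skeletal muscle-like) entered 1 edgeR 4.0.16 fit (filterByExpr, TMM, quasi-likelihood, Benjamini-Hochberg). The planned comparison with osteogenic progenitor-like cells could not be made. Classes numbered alike come from the same library, and deviations from class means correlated between 0.124 and 0.420 over 6 pairs, so the library also served as a replicate block. With 2 libraries, no exact test of single values can reach 0.05, and p-values measure the spread between 2 libraries whose animals are not stated. Depth was 33306452 to 100808649 UMIs. Tests were tried on simulated data with sums drawn independently, unlike the correlated sums here, and no result rests on that trial. Alternatives were DESeq2 1.42.0 and other filters, resolutions, and class rules.

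The members, marker lists, and pathway lists were chosen with earlier results of these data known. Named genes are the members, the 5 most alike per receptor, and the called gene of largest change in each pathway list; Nrp1, Lrp1, Stat5b, and other list members, the leading genes of clusters, and the reporters were named after their values were seen. The rule that removed blood clusters was kept after both it and a wider rule had been run and their clusters and member levels seen.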

Additional observations from a re-analysis of the deposited data

Results flagged for a closer look

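Reporter transcripts outside the comparisons were found although the labels give wild-type mice. EGFP had 6837 UMIs in library 2, all but 4 of them in cells outside the blood clusters, and 0 in library 1. tdTomato had 1482 UMIs in library 1, of which 318 were outside the blood clusters, and 4627 in library 2, of which 4064 were. P-SSC-like cells held 0 and 31 EGFP UMIs and 5 and 1492 tdTomato UMIs. Their part in the receptor and ligand values was not tested, and reporter and library cannot be told apart.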

How the results depend on the processing

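Every call of Pdgfrb against osteoblast-like and chondrocyte-like cells, and of Pdgfra, Pdgfc, and Pdgfd against chondrocyte-like cells, held in all 13 alternatives. Pdgfra against osteoblast-like cells was higher in all 13 and passed in 5: 1.28 with no filter on low counts (adjusted p = 0.0376, edgeR), 1.37 with DESeq2 (0.0273), 1.32 with the replicate block (0.0421), 1.31 with the legacy quasi-likelihood fit (0.0217), and 1.48 at resolution 1.2 (0.0239). The block changed no other call of a member. The counts of genes called stayed within 1.5 times the reported ones, from 1450 to 2660 against osteoblast-like and from 1820 to 3292 against chondrocyte-like cells. Within a library, the log2 ratio of Pdgfa in P-SSC-like over chondrocyte-like cells was 0.47 in library 1, the reverse of the fit, and -1.79 in library 2; the cause was not tested.

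The mean Pdgfra level of P-SSC-like cells, 303 CPM, moved by more than the SD of the libraries, to 314 at resolution 0.4, 336 at 1.2, 317 without integration, and 316 with every cluster nearest a blood list removed, a rule chosen after the data were seen. Under that rule osteoblast-like cells numbered 27 and 37, since a cluster of 66 and 130 cells with 7 of 10 osteoblast markers had neutrophil genes among its leading genes and stayed unnamed. At 2000 UMIs per cell the mean share of cells with Pdgfra and with Pdgfrb was 39.9% and 18.0% in P-SSC-like, 16.9% and 0.382% in osteoblast-like, and 28.8% and 59.3% in Lepr+ stromal-like cells. Leaving out 1 library allowed no test, as each class then had 1 sum. The comparison with Lepr+ stromal-like cells rests on 6 cells in library 2, and Pdgfb on 129 UMIs in all.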

Other observations

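Pdgfrb was also found in a blood cluster, the one led by Prss34, Ccl5, and Mcpt8, which no list named. It had 20 Pdgfrb UMIs in 14 of 119 cells of library 1 (10.0 CPM, 6.11 to 15.5) and 6 in 2 of 38 cells of library 2 (12.1, 4.44 to 26.3), against 0.117 and 0.137 in B cell-like cells, and 0 Pdgfra UMIs in both libraries. Split by the marker lists after these values were seen, cells with at least 3 UMIs of T/NK markers and fewer than 3 of mast/basophil markers held 7 UMIs in 51 cells and 5 in 28 cells, the latter all in 1 cell, and cells with both held 9 in 19 cells and 1 in 2. Cells with mast/basophil markers only held 1 UMI in 14 cells and 0 in 2. Rgs5, the marker of the smooth muscle-like class, had 2 and 0 UMIs in the cluster. Pdgfb was in the same cluster, with 9 UMIs in the 51 cells of library 1 with T/NK markers only, 9 in the 35 cells with neither list, and 5 in the 28 cells of library 2 with T/NK markers only.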
